A study of Mus musculus with 20 samples.

Results

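The nuclear genes for the subunits of the mitochondrial respiratory chain and ATP synthase were followed in lung cells of male C57BL/6 mice, before and after culture on flat plastic or inside a collagen hydrogel. Members were chosen by symbol alone: Nduf with a letter a, b, c, s or v and a number, Sdha to Sdhd, Uqcr, Cox4 to Cox8 with a letter, and Atp5, without pseudogenes. The rule matched 87 genes, of which 86 carried values among 18012 genes with values, and Cox8c carried none. Of the 86, 38 were counted to complex I, 4 to complex II, 8 to complex III, 19 to complex IV and 17 to complex V. Ndufa4 and its relative Ndufa4l2 were counted to complex IV, where the Ndufa4 protein is now placed.

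The 5 groups of 4 RNA-seq libraries share strain, sex and tissue, and no drug was given. Lung tissue was digested with collagenase. In the groups 2D-2D, 3D-2D, 2D-3D and 3D-3D the whole digest was grown for 4 days on plates (2D) or in collagen gel (3D) and then for 2 days on the second substrate named. The group called sorted here was not cultured, and held the cells that remained after beads had removed CD45+, EpCam+ and CD31+ cells. The labels do not state that each library is its own animal, and every p-value given here reflects library-to-library spread, which may be technical.

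Complex I (NADH dehydrogenase) and complex II (succinate dehydrogenase, also an enzyme of the TCA cycle) feed electrons to coenzyme Q. Complex III passes them to cytochrome c and complex IV (cytochrome c oxidase) to oxygen, and complex V, the ATP synthase, uses the proton gradient that complexes I, III and IV build. Most subunits are nuclear genes whose products are imported and assembled with a few subunits made inside the mitochondrion. Several complex IV subunits exist as pairs of a general isoform and one known from muscle, testis or lung.

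Depth was 19.67 to 20.33 M counts per library in the cultures and 11.66 to 13.95 M in sorted cells. Replicate 3 of 3D-3D stood apart: chi-square divided by its degrees of freedom was 32.6 to 39.3 against the other libraries of its group, and at most 25.6 in all other replicate pairs. The tests kept 13704 genes with 82 members between cultures, and 14715 genes with 83 members against sorted cells. Cox7b2, Ndufa11b and Ndufb4b were too low for either, at 0 to 14 counts summed over the 4 libraries of a group, and Cox8b was tested only against sorted cells. Levels below are CPM, counts scaled to a common library size with TMM factors, and changes are log2 fold changes ± SE from the quasi-likelihood test of edgeR, with 4 libraries a group. "Rose" and "fell" mean a Benjamini-Hochberg adjusted p below 0.05 over all genes tested.

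The sorted group was not fibroblasts alone, and the cultures differed in their mix of markers. Markers of smooth muscle and myofibroblasts (6 genes) took 1.32 to 1.76% of counts in cultures that ended on plates, 0.0723 to 0.151% in those that ended in gel and at most 0.0349% in sorted cells. Macrophage markers (12 genes, all above 0 in each group) took 0.645 to 0.84% in 2D-2D, 1.97 to 2.4% in 2D-3D, 1.1 to 1.21% in 3D-2D, 1.29 to 1.59% in 3D-3D and 0.589 to 0.632% in sorted cells. Endothelial markers (8 genes, none at 0) took 0.214 to 0.225% in sorted cells and at most 0.0108% in any culture. Airway markers (8 genes) took 0.126 to 0.163% in sorted cells and 0.0152 to 0.038% in 3D-3D, with Scgb3a2 at 0 in all cultures. Alveolar type 2 (7 genes), lymphocyte (7 genes), neutrophil (6 genes) and red blood cell markers (7 genes) were also highest in sorted cells, at no more than 0.1% each. Pericyte markers (8 genes) summed to between 0.0185 and 0.0463% everywhere, with the defining Higd1b at 0 in 2D-2D, 2D-3D and 3D-2D. Fibroblast markers (7 genes, none at 0) summed to between 0.631 and 1.68%. Both sums hid opposite changes. In 3D-3D against 2D-2D, the pericyte markers Rgs5, Abcc9, Kcnj8 and Mcam rose (8.11, 4.04, 2.79 and 0.56) and Pdgfrb fell (-1.30). Cspg4 and Notch3 changed by -0.04 and 0.29. Among fibroblast markers there, Dcn, Lum, Pdgfra and Col3a1 rose (4.21, 3.61, 1.14 and 1.08). Col1a1, Col1a2 and Tcf21 fell (-2.06, -1.52 and -0.73). In bulk RNA, fewer cells of a type and less RNA per cell cannot be told apart, and the part of these mixtures in the results below was not tested.

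All members together took 0.474% ± 0.0108 of counts in sorted cells (SD, n = 4) and more in every culture. The share was 0.938% ± 0.0801 in 2D-2D, 0.853% ± 0.0446 in 2D-3D, 0.951% ± 0.0281 in 3D-2D and 0.876% ± 0.0467 in 3D-3D. No cultured library came near the sorted ones, whose highest share was 0.483% against a lowest of 0.8% in culture. Complex V took the largest share in all groups, from 0.171% ± 0.00379 in sorted cells to 0.392% ± 0.00862 in 3D-2D. Its share was also the one that parted the 2 final substrates: it ran from 0.334 to 0.404% in the 8 libraries that ended on plates and from 0.271 to 0.321% in the 8 that ended in gel, without overlap. The shares of the other 4 complexes overlapped between libraries that ended on plates and those that ended in gel. The complex V sum is weighted by Atp5b, its member with the highest mean CPM, whose levels also parted and are given below. The sum does not stand for every complex V member. Scaled by library size, as these shares are, 6 of 17 fell and 4 rose in 2D-3D against 2D-2D. In 3D-3D against 3D-2D, 8 fell and 6 rose.

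**Figure D1:**
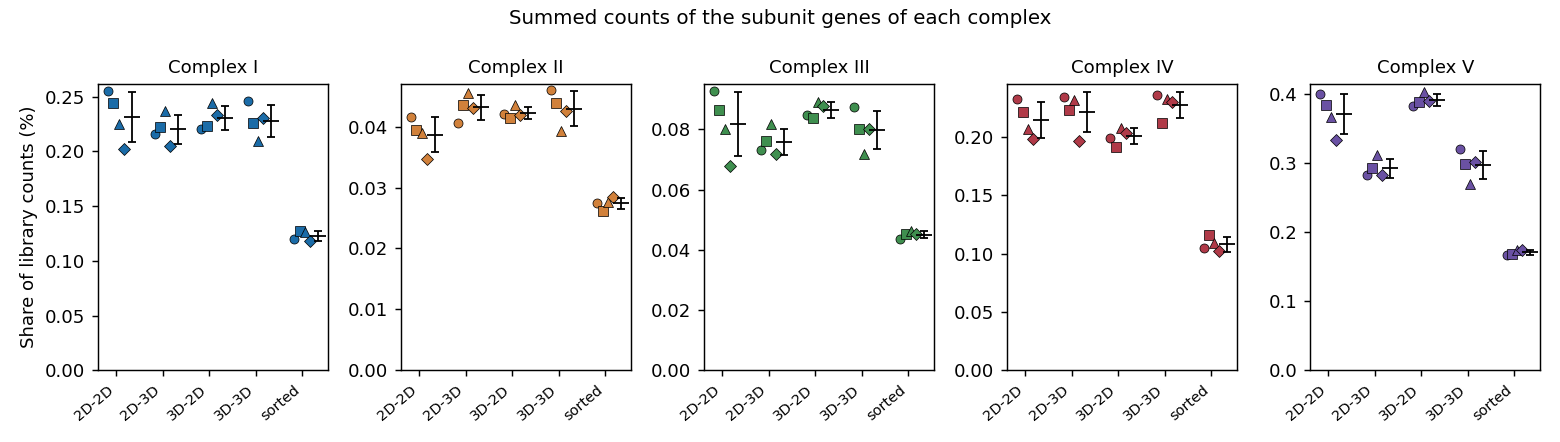
Share of all counts of a library (%, linear axis from 0) taken by the summed subunit genes of each complex, with 1 point per library, shaped by replicate number as in the plot of levels, and mean ± SD beside the points. The 4 sorted libraries lie below every cultured library in each panel. The summed share of complex V, which is weighted by Atp5b, separates cultures that ended on plates (0.334 to 0.404%) from those that ended in gel (0.271 to 0.321%).

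Per length of transcript, the most abundant members belonged to complexes IV and V. In TPM (counts divided by transcript length, scaled to the same total in each library), Atp5d, the delta subunit in the central stalk of the synthase, led in complex V in all groups, with 1144 ± 47.9 TPM in 2D-2D and 495 ± 20.02 in sorted cells. Cox6a1, a general complex IV subunit, stood at 1114 ± 41.8 TPM in 2D-2D and 618 ± 23.1 in sorted cells. The median over the members of complex I with a transcript length was 118 TPM in 2D-2D and 77.2 in sorted cells, and the corresponding medians of complex V were 269 and 141. Complex II was the least abundant complex, with a median over its 4 genes between 73.4 TPM in sorted cells and 115 in 3D-3D.

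Against sorted cells, members of all complexes rose in all 4 cultures. Of 83 members tested, 75 rose and 4 fell in 2D-2D, 77 rose and 3 fell in 2D-3D, 73 rose and 5 fell in 3D-2D, and 77 rose and 4 fell in 3D-3D. Of all genes tested, 38.5% rose and 46.1% fell in 2D-2D, 38.2% and 39.9% in 2D-3D, 38.1% and 45.8% in 3D-2D, and 38.5% and 39.3% in 3D-3D. The median member changed by 1.24 in 2D-2D, 0.92 in 2D-3D, 1.15 in 3D-2D and 0.94 in 3D-3D, where the median of all genes was -0.17, -0.02, -0.15 and -0.001. Scaled by library size alone, 72, 76, 71 and 77 members rose in the same order. These 4 comparisons share the sorted libraries. In 71 of the 83 members every cultured library lay above every sorted one, as did 24.1% of the genes tested.

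The largest rise within each complex in 2D-2D was that of Ndufa4l2, described below, in complex IV (3.55 ± 0.27), of Uqcrq, a small subunit, in complex III (2.24 ± 0.11), of Ndufc1, an accessory subunit, in complex I (2.20 ± 0.14), of Atp5k, the e subunit of the synthase, in complex V (2.07 ± 0.14), and of Sdhc, a membrane anchor, in complex II (1.38 ± 0.07). In 3D-3D these genes rose by 4.04 ± 0.27, 1.35 ± 0.10, 1.56 ± 0.14, 1.62 ± 0.14 and 1.16 ± 0.07. Atp5b encodes the catalytic beta subunit of the synthase and had the highest mean CPM of complex V (gene 11947, chromosome 10, 128083307 to 128090388 in GRCm38.p6). It stood at 335, 318, 343 and 350.4 CPM in sorted cells, 1339, 1318, 1216 and 1065 in 2D-2D, 528, 553, 597 and 542 in 2D-3D, 1171, 1269, 1346 and 1286 in 3D-2D, and 607, 538, 502 and 567 in 3D-3D. The 3 levels of this gene, sorted, gel and plate, did not overlap, and against sorted cells it rose by 1.87 ± 0.08 in 2D-2D (adjusted p = 1.04e-16) and by 0.72 ± 0.08 in 3D-3D (adjusted p = 9.25e-09).

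Sdha, the flavoprotein that carries the catalytic site of complex II, did not follow its partners. It stood at 107, 96.5, 109 and 111 CPM in sorted cells, 94.2, 92.6, 98.4 and 86.7 in 2D-2D, 106, 118, 109 and 110 in 2D-3D, 112, 106, 96.2 and 96.3 in 3D-2D, and 107, 108, 96.4 and 105 in 3D-3D. The groups overlapped, and Sdha fell slightly in 2D-2D (-0.19 ± 0.07, adjusted p = 0.015) and changed by 0.06 ± 0.07, -0.04 ± 0.07 and -0.03 ± 0.07 in the other 3 cultures (adjusted p = 0.407, 0.549 and 0.727). Sdhb, the iron-sulfur subunit, rose by 1.24 ± 0.11 and Sdhd, the other anchor, by 1.13 ± 0.07 in 2D-2D. Of the 83 members 71 rose in all 4 cultures and 3 fell in all 4, and the other 9 were mixed. Ndufs1, the largest subunit of complex I, was among the mixed ones and changed by -0.06 in 2D-2D and 0.26 ± 0.10 in 3D-3D, where it rose. It is named here after its values were seen.

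The 3 members that fell in all cultures were Cox6b2, a form of subunit 6B known from testis, Cox8b, a form of subunit 8 known from heart, muscle and brown fat, and Atp5s, the synthase-associated factor B, whose RefSeq name is Dmac2l. Cox6b2 went from 22.8 ± 1.73 CPM in sorted cells to between 4.92 ± 1.66 in 2D-3D and 7.95 ± 0.495 in 2D-2D, with no overlap, and fell by 1.52 ± 0.15 in 2D-2D (adjusted p = 2.27e-09). Cox8b had 29, 35, 34 and 26 counts in the sorted libraries and 0, 0, 2 and 2 counts summed over the 4 libraries of 2D-2D, 3D-2D, 2D-3D and 3D-3D. Taking 3 counts per group as the floor, it was at least 63.8-fold lower in 2D-2D and 64.2-fold lower in 3D-2D. Markers of cardiac and skeletal muscle (8 genes) took 0.00105 to 0.00136% of counts in sorted cells, where none was at 0, and at most 0.000483% in cultures, all of which had Myh6 at 0. Of 5 brown adipocyte markers, which took at most 0.000163% anywhere, none passed the filter on low counts. Their part in the Cox8b result was not tested.

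**Figure D2:**
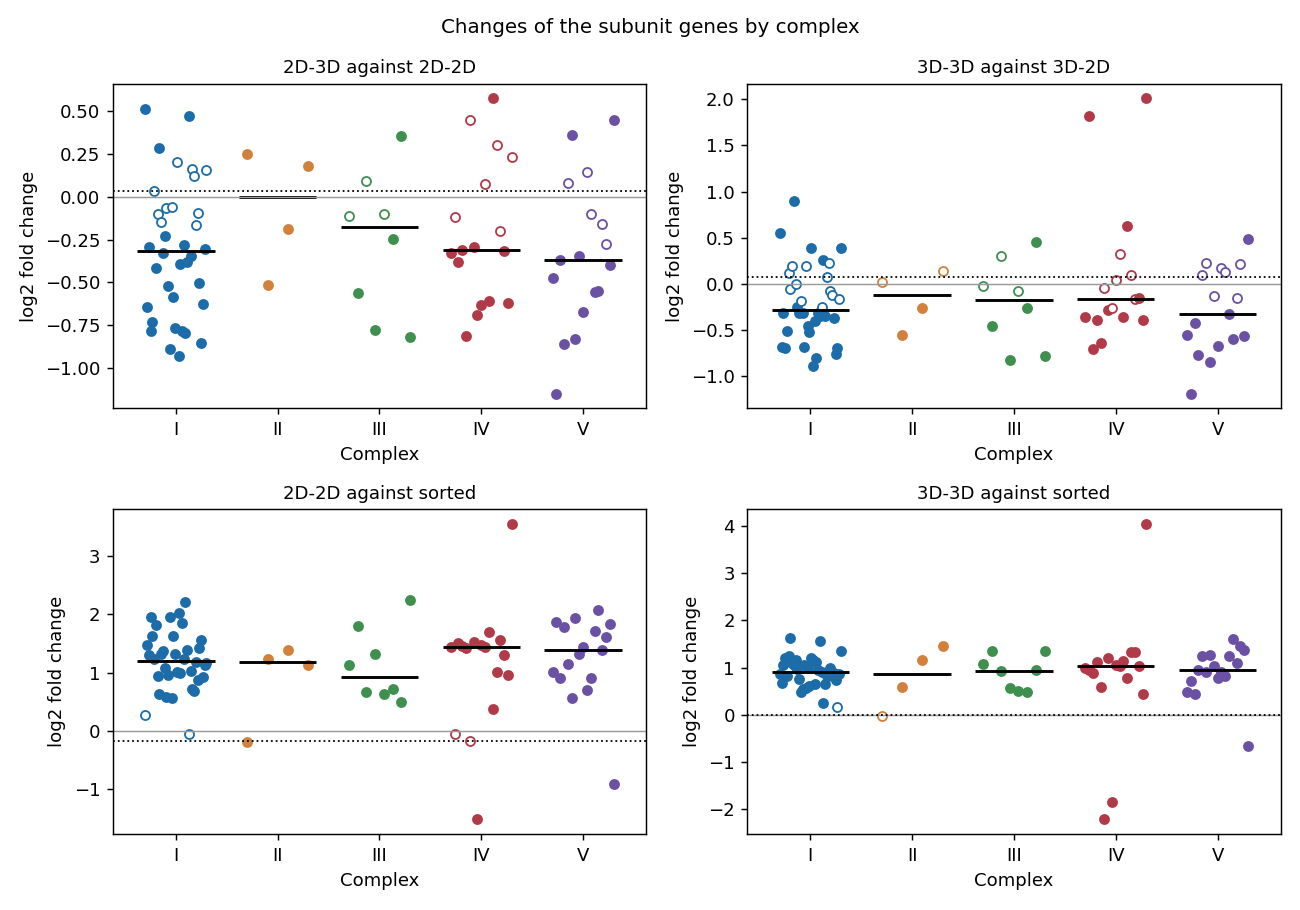
log2 fold change of each subunit gene (points, filled where the adjusted p was below 0.05) by complex in 4 comparisons, with the median of each complex (bar) and the median of all genes tested (dotted line); Cox8b is left out. Against sorted cells nearly all genes lie above 0. In gel against plate, genes fell in each complex and fewer rose, except for complex II after the plate (2 fell, 2 rose). In complex II after the gel none rose. The medians for gel against plate lie at or below 0 here and between -0.09 and 0.28 when libraries are scaled by size alone.

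Transcript length went with the change against sorted cells over all genes, and members have short transcripts (median 730 bases). In 2D-2D, the 455 other genes with transcripts of up to 750 bases had a median change of 0.61, and the 1991 other genes over 5000 bases a median of -0.61. The 45 members of up to 750 bases had a median of 1.31 there, the 12 members of 750 to 1000 bases 1.59 against 0.41 for 623 other genes, and the 6 members of 2000 to 3000 bases 1.24 against -0.20 for 3592 other genes. In 3D-3D the corresponding values were 1.04 against 0.66, 0.98 against 0.58, and 0.58 against 0.02. The members' median was thus above that of other genes of like length in these bins, by less than it was above that of all genes for the shortest ones. The bin of 2000 to 3000 bases was mixed. In 2D-2D, 4 of its 6 members rose, among them Ndufb2 (1.95), while Ndufs1 and Sdha changed by -0.06 and -0.19. The length that sets the bin is a median over annotated transcripts, for Ndufb2 2413 bases, and other lengths were not tried. The part of RNA length or quality in the comparison with sorted cells was not tested.

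**Figure D3:**
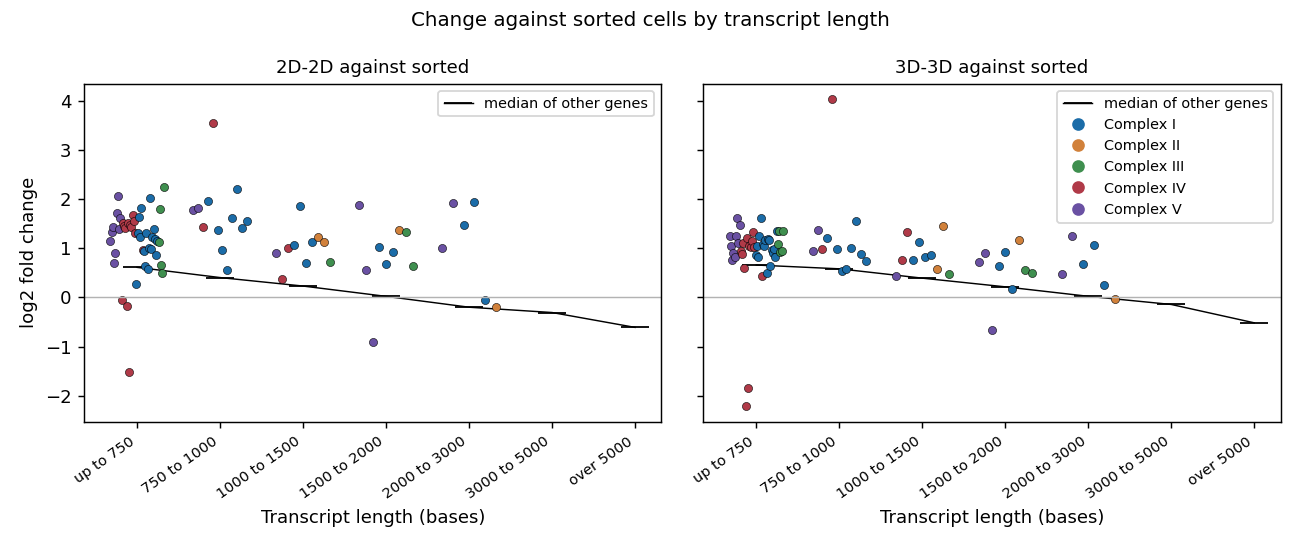
log2 fold change against sorted cells (y axis) by transcript length class in bases (x axis) for 2D-2D (left) and 3D-3D (right), with the median of other genes as bars joined by a line and each subunit gene as a point coloured by complex; Cox8b is left out. The line falls from 0.61 for the shortest to -0.61 for the longest transcripts in 2D-2D, and most subunit genes lie above it.

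The second culture set most of the differences between cultures. Cells grown first on plates were compared in gel and on plates (2D-3D against 2D-2D), as were cells grown first in gel (3D-3D against 3D-2D), and these comparisons share no library. After the plate, 48 of 82 members fell in gel and 9 rose, where 34.7% of all genes fell and 36.5% rose. After the gel, 42 fell and 10 rose, where 32.8% of all genes fell and 37.7% rose. The median member changed by -0.31 and -0.26, and the median gene by 0.03 and 0.07. In both comparisons 42 members fell and 6 rose, and none rose in one and fell in the other. Across the 82 members the changes in the 2 comparisons had a Pearson r of 0.767 and a Spearman rho of 0.892, and across all 13704 genes, which share libraries and are not independent, 0.772 and 0.816.

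The split between falls and rises depended on the scaling. With libraries scaled by size alone, 25 members fell and 20 rose after the plate and 22 and 25 after the gel, with medians of -0.03 in both. This scaling moved the median of all genes to 0.31 and 0.30. With either scaling the median member lay 0.34 and 0.33 below the median gene. A change of scaling shifts all genes of a comparison by nearly the same amount. This gap could therefore not differ much, and its stability is no separate evidence. Smooth muscle markers took over 1.3% of counts on plates and below 0.2% in gel, as given above. The shift was upward, which favours rises: all 9 and all 10 members that rose with TMM also rose under this scaling. Of those that fell, 25 of 48 and 22 of 42 also fell. None was called in the opposite direction.

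In complex V, 10 of 17 members fell and 2 rose after the plate, and 9 fell and 1 rose after the gel. Under both scalings falls were called for Atp5b (-1.15 ± 0.08 after the plate and -1.20 ± 0.08 after the gel), Atp5d (-0.86 ± 0.08 and -0.77 ± 0.08) and Atp5g1 (-0.83 ± 0.09 and -0.85 ± 0.09). Atp5g1, Atp5g2 and Atp5g3 encode the same mature c subunit of the rotor ring. Atp5g3 fell by 0.67 ± 0.10 and 0.68 ± 0.10, while Atp5g2 fell after the plate with TMM only (-0.35 ± 0.08) and changed by -0.13 ± 0.08 after the gel (adjusted p = 0.134). Per length, Atp5g2 gave 57.6 to 61.9% of c subunit transcripts in 2D-2D, 61.8 to 68.4% in 2D-3D, 54.2 to 57.6% in 3D-2D and 62.5 to 69.9% in 3D-3D, while Atp5g1 gave 4.88 to 9.49% in any library. The lengths used, medians over annotated transcripts, were 2675.5 bases for Atp5g1, 586 for Atp5g2 and 718.5 for Atp5g3. The low share of Atp5g1 rests on its length, and other lengths were not tried. Atp5f1, the b subunit of the peripheral stalk (Atp5pb in RefSeq), went the other way and rose after the plate (0.36 ± 0.10, adjusted p = 0.00361), and changed by 0.22 after the gel.

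In complex III, 4 of 8 members fell and 1 rose in both comparisons. Uqcrc1, a core subunit (gene 22273, chromosome 9, 108936648 to 108949641), had 320, 317, 301 and 222 CPM in 2D-2D and 164, 173, 179 and 158 in 2D-3D. The groups did not overlap, and nor did 3D-2D, at 257, 311, 321 and 321 CPM, and 3D-3D, at 185, 162, 169 and 168. Uqcrc1 fell by 0.78 ± 0.10 and 0.82 ± 0.10, and Uqcrq by 0.82 ± 0.10 and 0.78 ± 0.10. Uqcrh, the hinge protein of the same complex (gene 66576, chromosome 4, 116066965 to 116075070), rose by 0.35 ± 0.11 (adjusted p = 0.00537) and 0.45 ± 0.11 (adjusted p = 0.000729). Its levels were 84.7, 70.7, 71 and 61.9 CPM in 2D-2D, 84.9, 89.2, 113 and 81.4 in 2D-3D, 77, 67, 75.2 and 67.5 in 3D-2D, and 105, 89.6, 106 and 92.4 in 3D-3D, overlapping only after the plate.

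In complex I, 22 of 36 members tested fell and 3 rose after the plate, and 19 fell and 5 rose after the gel. Ndufb6, an accessory subunit (gene 230075, chromosome 4, 40270591 to 40279421), fell by 0.93 ± 0.13 and 0.90 ± 0.13, and Ndufs8, an iron-sulfur subunit of the core, by 0.86 ± 0.11 and 0.77 ± 0.11. Ndufa1, an accessory subunit encoded on chromosome X, rose by 0.52 ± 0.14 and 0.55 ± 0.14. Ndufs1 rose by 0.47 ± 0.11 and 0.25. Ndufb6 shares 39.0% of its exon bases with Smim27 on the other strand, and 23 members share exon bases with some gene; whether the counting used strand is not given in the sources used here. Ndufb4 and Ndufb4c are close copies, and their counts are uncertain.

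In complex II, Sdhb fell by 0.52 ± 0.11 and 0.56 ± 0.11 and Sdhc by 0.19 ± 0.07 and 0.27 ± 0.07. Under size scaling Sdhb fell only after the gel and Sdhc in neither comparison, and after the plate the change of Sdhc had the other sign (0.09). Sdha rose after the plate (0.25 ± 0.07, adjusted p = 0.00372) and changed by 0.02 ± 0.07 after the gel, and Sdhd rose after the plate by 0.18 ± 0.07 and changed by 0.14 ± 0.07 after the gel (adjusted p = 0.0649); under size scaling both rose in both comparisons.

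In complex IV, 10 of 17 members tested fell and 1 rose after the plate, and 8 fell and 3 rose after the gel. Cox6a1 (gene 12861, chromosome 5, 115345652 to 115348958) had 440, 446, 422 and 373 CPM in 2D-2D, 235, 238, 257 and 227 in 2D-3D, 333, 373, 384 and 396 in 3D-2D, and 279, 225, 217 and 227 in 3D-3D. It fell by 0.81 ± 0.08 and 0.65 ± 0.08 without overlap. Cox7a2l, a relative of subunit 7A (gene 20463, chromosome 17, 83501917 to 83514333), rose by 0.58 ± 0.08 (adjusted p = 1.7e-06) and 0.63 ± 0.08 (adjusted p = 6.45e-07). It had 229, 221, 220 and 202 CPM in 2D-2D against 345, 328, 336 and 288 in 2D-3D, and 183, 175, 194 and 192 in 3D-2D against 265, 265, 330 and 292 in 3D-3D. Its share of the Cox7a2 and Cox7a2l transcripts, per length, was 54.7 to 61.6% in cultures that ended on plates, 68.7 to 78.1% in those that ended in gel and 75.4 to 78.9% in sorted cells.

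**Figure D4:**
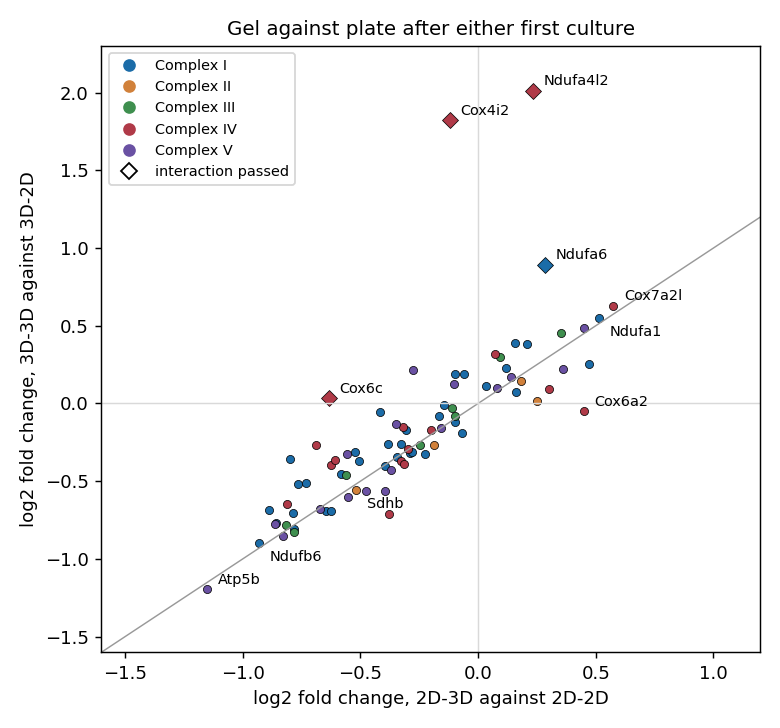
log2 fold change of gel over plate as the second culture, after a first culture on plates (x axis) and in gel (y axis), for 82 subunit genes coloured by complex; the grey diagonal marks equal change and diamonds mark genes whose interaction of first and second culture passed the test. Most genes lie near the diagonal, with Atp5b lowest in both, and Ndufa4l2, Cox4i2, Ndufa6 and Cox6c lie above it.

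Cells kept in gel throughout against cells kept on plates throughout (3D-3D against 2D-2D) gave 48 members that fell and 9 that rose, where 34.9% of all genes fell and 38.6% rose, with a median member of -0.32 and a median gene of 0.05. This comparison shares libraries with both above. The largest fall of a member with at least 10 CPM was that of Atp5b (-1.17 ± 0.08). With size scaling 22 fell and 26 rose, with a median of 0.00 against a median gene of 0.37.

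Promoters of 4 members that show these patterns are printed here, as the 250 bases before and 50 after the RefSeq start, read on the strand of the gene in GRCm38.p6. Uqcrc1 and Ndufb6 fell in gel, Uqcrh rose in gel, and Sdha stayed near its sorted level in culture. They lie at chr9:108936398-108936697 (plus strand), chr4:40279372-40279671 (minus), chr4:116075021-116075320 (minus) and chr13:74350191-74350490 (minus). Capitals mark matches, on either strand, to motifs of factors known to act on nuclear genes for mitochondrial proteins: GCGCANGCG for NRF1, CCGGAAG for ETS factors such as GABP, and AAGGTCA for estrogen-related receptors.
Uqcrc1: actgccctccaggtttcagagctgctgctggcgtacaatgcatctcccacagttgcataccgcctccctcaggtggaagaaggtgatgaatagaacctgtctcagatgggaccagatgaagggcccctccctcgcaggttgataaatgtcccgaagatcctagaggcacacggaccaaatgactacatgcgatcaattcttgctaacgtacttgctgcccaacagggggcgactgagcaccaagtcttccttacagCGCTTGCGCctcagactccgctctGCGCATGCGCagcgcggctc
Ndufb6: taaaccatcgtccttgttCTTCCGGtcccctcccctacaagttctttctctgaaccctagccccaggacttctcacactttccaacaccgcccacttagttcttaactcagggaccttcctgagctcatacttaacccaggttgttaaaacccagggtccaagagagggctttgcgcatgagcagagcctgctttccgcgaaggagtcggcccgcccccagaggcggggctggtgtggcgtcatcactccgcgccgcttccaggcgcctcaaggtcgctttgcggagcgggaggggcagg
Uqcrh: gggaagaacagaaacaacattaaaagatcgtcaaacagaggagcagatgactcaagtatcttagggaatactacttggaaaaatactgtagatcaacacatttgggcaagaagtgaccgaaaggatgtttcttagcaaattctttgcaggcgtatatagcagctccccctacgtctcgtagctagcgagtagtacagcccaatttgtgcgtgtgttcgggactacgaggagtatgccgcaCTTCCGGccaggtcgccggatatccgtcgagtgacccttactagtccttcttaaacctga
Sdha: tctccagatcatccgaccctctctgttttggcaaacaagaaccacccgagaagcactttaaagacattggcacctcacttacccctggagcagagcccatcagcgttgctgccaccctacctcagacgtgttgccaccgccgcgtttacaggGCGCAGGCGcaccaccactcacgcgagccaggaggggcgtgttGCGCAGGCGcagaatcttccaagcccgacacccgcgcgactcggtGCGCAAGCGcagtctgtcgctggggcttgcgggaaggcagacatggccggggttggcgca
Uqcrc1 and Sdha hold the NRF1 motif, at 2 and 3 places. Ndufb6, which fell in gel, and Uqcrh, which rose in gel, hold the ETS motif at 1 place each. Of 69 members with a promoter in the table, 29.0% held the NRF1 motif, against 13.6% of 11601 tested genes and 7.03% of all 27025 promoters. The ETS motif was in 23.2% of members, 18.1% of tested genes and 9.93% of all, and the receptor motif in 11.6%, 4.02% and 5.38%. Members with and without the NRF1 motif had median changes of -0.31 (20 genes) and -0.35 (46 genes) after the plate, and of 1.32 and 1.24 (47 genes) in 2D-2D against sorted cells. These matches are descriptions of letters and not of binding.

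The first culture left few differences in members. On the plate as second culture (3D-2D against 2D-2D), 6 of 82 members fell and none rose, where 10.6% of all genes fell and 9.74% rose. There, 13 members had an unadjusted p below 0.05, and limma-voom also called none that rose. DESeq2 called 1 that rose, Sdhd, and size scaling called Sdhd (0.27) and Atp5g1 (0.26). In gel as second culture (3D-3D against 2D-3D), 2 fell and 1 rose, where 12.7% of all genes fell and 15% rose. The difference between the gel effects after the 2 first cultures (the interaction) was positive for 4 members and negative for none, where 10.3% of all genes were positive and 9.1% negative. There, 9 members had an unadjusted p below 0.05, and limma-voom also called none negative. DESeq2 and size scaling each called 1 negative, Cox5a (-0.38 with size scaling). Ndufc1 just missed the threshold in edgeR (0.44 ± 0.16, adjusted p = 0.050001) and was called positive with DESeq2 and with RLE size factors. The median member changed by -0.06, 0.00 and 0.04 in these 3 comparisons.

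Ndufa4l2 was among the members with an interaction (gene 407790, chromosome 10, 127509274 to 127517154). It encodes a relative of Ndufa4 known to be induced by HIF-1 under low oxygen and to lower complex I activity. It had 208, 189, 193 and 195 CPM in 2D-2D, 366, 250, 178 and 129 in 2D-3D, 58, 79.1, 67 and 70.2 in 3D-2D, 208, 184, 429 and 286 in 3D-3D, and 17.3, 15.4, 18.9 and 15.6 in sorted cells. The 4 libraries of 3D-2D lay below all other cultures and above the sorted ones. Ndufa4l2 fell in 3D-2D against 2D-2D (-1.53 ± 0.25, adjusted p = 0.000112) and rose in 3D-3D against 3D-2D (2.01 ± 0.25), whereas its change in 2D-3D against 2D-2D was 0.23 ± 0.24 (adjusted p = 0.396). The interaction was 1.78 ± 0.35 (adjusted p = 0.000867), and between 1.49 and 2.09 with any 1 library left out. Against sorted cells it rose by 2.03 ± 0.26 in 3D-2D to 4.04 ± 0.27 in 3D-3D.

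Ndufa4 itself fell in gel by 0.62 ± 0.14 after the plate and, with TMM only, by 0.40 ± 0.14 after the gel. Per length, Ndufa4l2 made up 19.7 to 22.9% of the transcripts of the pair in sorted cells, 56 to 65.9% in 2D-2D, 61.1 to 83.2% in 2D-3D, 30.1 to 44.7% in 3D-2D and 66.9 to 85.1% in 3D-3D. Shmt2 shares 3.43% of the exon bases of Ndufa4l2 on the other strand and moved differently, with 598 ± 67.0 CPM in 2D-2D, 128 ± 11.1 in 2D-3D, 466 ± 37.4 in 3D-2D, 134 ± 7.20 in 3D-3D and 47.4 ± 2.56 in sorted cells.

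Cox4i2, the form of subunit 4 that is abundant in lung and induced by low oxygen (gene 84682, chromosome 2, 152753916 to 152765039), had 19.3, 17.8, 17.9 and 17.5 CPM in 2D-2D, 36.9, 12.8, 10.3 and 6.56 in 2D-3D, 8.4, 10.4, 11.6 and 10.6 in 3D-2D, 29, 18.5, 66.1 and 31.6 in 3D-3D, and 19.2, 19, 19.4 and 17.6 in sorted cells. The 2D-3D libraries spread over the whole range of the plates and beyond, and replicate 3 of 3D-3D was the highest. The interaction was 1.94 ± 0.55 (adjusted p = 0.015), and 1.49 without replicate 3 of 3D-3D and 2.69 without replicate 1 of 2D-3D. Its rise in 3D-3D against 2D-3D (1.11 ± 0.37, adjusted p = 0.0312) and against 2D-2D (0.99 ± 0.38, adjusted p = 0.023) did not pass without replicate 3 of 3D-3D (0.66 and 0.54). The first of these also did not pass without replicate 2, 3 or 4 of 2D-3D (1.00, 0.94 and 0.84), in a fit of only the groups compared (1.13) or with DESeq2 (1.12), and was 1.86 without replicate 1. Cox4i1, the general form, had the highest CPM of the pair in every library, and Cox4i2 was 13.7 to 15% of the pair per length in sorted cells, 5.35 to 6.56% in 2D-2D, 3.1 to 13.8% in 2D-3D, 3.4 to 3.64% in 3D-2D and 8.73 to 21.8% in 3D-3D.

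Glycolytic and hypoxia-response genes followed these isoforms in part. Of 24 such genes 11 had a positive interaction and none a negative one, with a median of 0.62, and Egln3, an oxygen sensor induced by HIF, had 1.79. Within groups, the 2 libraries highest for both genes, replicate 1 of 2D-3D and replicate 3 of 3D-3D, were also the highest in the summed share of this list, at 3.65% against 2.3 to 3.02% in the other 2D-3D libraries and 4.9% against 3.11 to 3.61% in the other 3D-3D libraries. Across groups the summed share of the list did not follow Ndufa4l2. It was 3.94% ± 0.195 in 3D-2D, where Ndufa4l2 was lowest among the cultures. In 2D-3D it was 2.94% ± 0.563, in 3D-3D 3.79% ± 0.775 and in 2D-2D 4.49% ± 0.107. Single genes went both ways in 3D-3D against 3D-2D, where Ndufa4l2 rose. Ankrd37 (2.70), Bnip3 (1.73), Egln3 (1.69), Vegfa (1.19), Pdk1 (0.95), Hif1a (0.59), Slc2a1 (0.44), Epas1 (0.40) and Hk2 (0.34) also rose. Adm (-1.96), Gapdh (-0.52), Pkm (-0.44), Eno1 (-0.40) and Slc16a3 (-0.36) fell. In 3D-2D against 2D-2D, where Ndufa4l2 fell, 1 gene of the list fell (Bnip3, -0.60), 1 rose (Epas1, 0.82), and Egln3 changed by -0.11 (adjusted p = 0.852). The part of oxygen supply in these values was not tested.

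Cox6c, a small complex IV subunit, and Ndufa6, an accessory subunit of complex I, had smaller interactions of 0.67 ± 0.21 (adjusted p = 0.0263) and 0.61 ± 0.16 (adjusted p = 0.00905). Cox6c had 147, 143, 84.9 and 92.7 CPM in 2D-2D, 70.1, 75.4, 87.8 and 67.4 in 2D-3D, 90.9, 71.1, 88.8 and 88.6 in 3D-2D, and 96.3, 81.3, 77.9 and 92.5 in 3D-3D. Only 2 libraries of 2D-2D stand above the rest, and without either of them the interaction of Cox6c was 0.54 and 0.56 and did not pass. It also did not pass without replicate 4 of 2D-3D, replicate 2 of 3D-2D, or replicate 1 or 4 of 3D-3D (0.59 to 0.64). Ndufa6 had 82.9, 73.3, 54.5 and 60.3 CPM in 2D-2D and 90, 82.9, 78.3 and 78.4 in 2D-3D, against 53.8, 43.6, 46.4 and 50 in 3D-2D and 92.5, 75.4, 96.2 and 96 in 3D-3D. Its 3D-2D libraries lay below all libraries of the other cultures, and it fell by 0.49 ± 0.11 in 3D-2D against 2D-2D (adjusted p = 0.00312).

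Cox6a2, the muscle form of subunit 6A, was low everywhere and followed the first culture (gene 12862, chromosome 7, 128205435 to 128206366). It had 1.68, 1.14, 1.45 and 1.64 CPM in 2D-2D and 2.47, 2.24, 1.97 and 1.39 in 2D-3D, against 0.37, 0.489, 0.218 and 0.38 in 3D-2D and 0.374, 0.27, 0.683 and 0.0921 in 3D-3D, with no overlap between first cultures. It fell by 2.01 ± 0.42 in 3D-2D against 2D-2D (adjusted p = 0.00125) and by 2.51 ± 0.40 in 3D-3D against 2D-3D (adjusted p = 5.38e-05), and gave at most 1.00% of the Cox6a1 and Cox6a2 transcripts per length. Itgad, which shares 10.3% of its exon bases on the other strand, stood at 4.87 ± 0.426 CPM in sorted cells and was listed at 0 in all cultured libraries. Beside Ndufa4l2, Ndufa6 and Cox6a2, the members that fell in 3D-2D against 2D-2D were Cox6c (-0.47 ± 0.15), Ndufa13, an accessory subunit of complex I (-0.30 ± 0.10), and Cox7a2l (-0.24 ± 0.08). None of these last 3 falls was called with size scaling. Cox5a, a complex IV subunit, fell in 3D-3D against 2D-3D (-0.25 ± 0.09, adjusted p = 0.0339). The fall of Cox5a did not pass without replicate 2 or 3 of 2D-3D or replicate 2, 3 or 4 of 3D-3D (-0.25 to -0.20), with size scaling (-0.21) or in a fit of only the groups compared (-0.24).

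**Figure D5:**
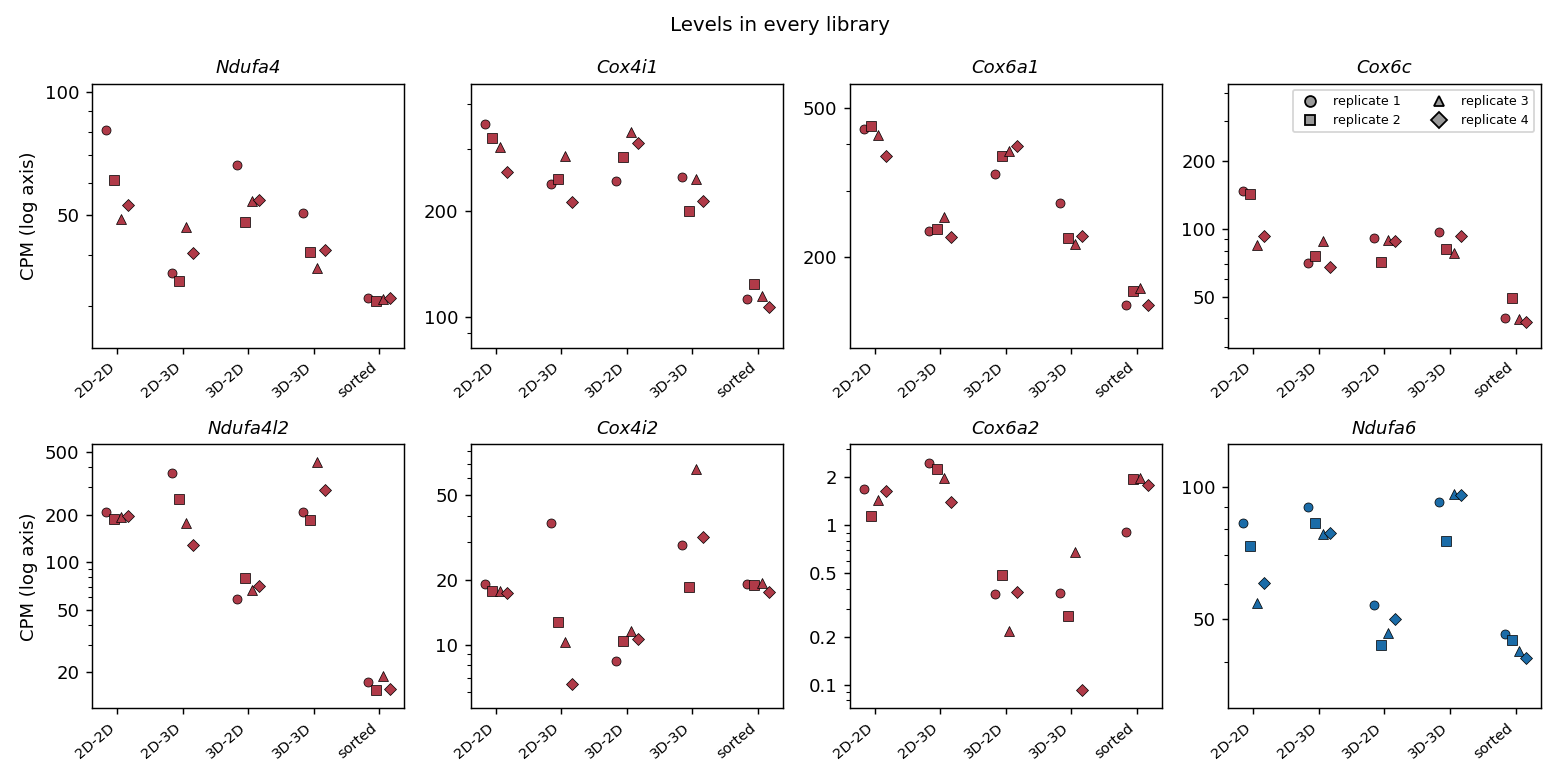
Level in CPM (log axis) of 8 subunit genes in each of the 20 libraries, with 1 point per library shaped by replicate number and coloured by complex (complex IV red, complex I blue). Ndufa4l2 and Ndufa6 are lowest among the cultures in 3D-2D, Cox4i2 spreads from 6.56 to 36.9 CPM within 2D-3D, and Cox6a2 separates cultures by the first substrate.

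Other genes of mitochondrial function are read against the same shares of all genes given above for each comparison. Ndufab1 of complex I, Cyc1 of complex III, the carrier Cycs and Usmg5 of complex V, which the symbol rule does not reach, all fell in gel after either first culture and all rose in each culture against sorted cells, and Cyc1 went from 128 ± 9.70 CPM in 2D-2D to 63.7 ± 5.06 in 2D-3D. Of 78 genes of the mitochondrial ribosome, 45 fell and 5 rose after either first culture, and 75 rose and none fell in 2D-2D against sorted cells, with a median of 1.12. Of 27 import genes, 17 fell and 2 rose after the plate and 24 rose and 2 fell in 2D-2D against sorted cells. Of 18 genes of pyruvate dehydrogenase and the TCA cycle, 12 fell and 2 rose after the plate, and Mdh2, malate dehydrogenase, fell by 0.96.

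Of 51 assembly factors, 19 fell and 11 rose after the plate, where 34.7% of all genes fell and 36.5% rose, and 37 that rose and 1 that fell in 2D-2D against sorted cells. Of 13 genes of coenzyme Q synthesis 6 fell and 2 rose after the plate. Of 14 genes of fatty acid oxidation, 8 rose and 1 fell after the plate, with Acadm, the medium-chain acyl-CoA dehydrogenase, rising by 1.06. Of 17 regulators of mitochondrial biogenesis 9 rose and 4 fell after the plate. Ppargc1a, the coactivator PGC-1 alpha, went from 0.143 ± 0.118 CPM in 2D-2D to 1.34 ± 0.802 in 2D-3D, and stood at 2.49 ± 0.58 in 3D-3D, 0.229 ± 0.135 in 3D-2D and 2.16 ± 0.137 in sorted cells. These lists were chosen with earlier results of these data known, and their falls in gel depend on the scaling as those of the members do: with size scaling, 22 mitochondrial ribosome genes fell and 21 rose after the plate.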

How the data were processed

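The authors deposited expected counts (estimated counts per gene) for 20 libraries in 5 groups of 4; 5.98% of the values are not whole (tolerance 1e-06), and they were rounded for the tests. The submitters' processing notes name HISAT, Bowtie2 and the build GRCm38.p6, without versions. Which program counted, and whether it used strand, is not given in the sources used here. Of 67228 rows 18012 carry values, and 5 columns of group averages were not used. Libraries were grouped by their titles. Same-numbered libraries of different groups did not deviate together (correlations -0.082 to 0.119, 1 of 40 above 0.1), so numbers were not used as pairs.

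Tests used edgeR 4.0.16 in R 4.3.3: filterByExpr, TMM, glmQLFit and glmQLFTest with Benjamini-Hochberg adjustment over all genes, in a fit of the 16 cultured libraries (13704 genes, biological coefficient of variation 0.122) or of all 20 (14715 genes, 0.112). The test was checked on simulated data in which few genes changed, as many up as down. Such data cannot check the choice between TMM and size scaling. Groups with 0 counts got a bound from a floor of 3 counts over the group; bounds cover counting error only. Lengths are medians of protein-coding transcripts in GENCODE M21 and exist for 83 of 86 members; promoters are RefSeq's, matched by gene.

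The members and lists were chosen with earlier results of these data known. Named genes are, per comparison and complex, up to 3 that rose and 3 that fell with the largest change and at least 10 CPM in a group, the isoform pairs, the Sdh genes and the most abundant members, plus up to 2 each way of other lists; the text names part of them, and exceptions such as Ndufs1 against sorted cells, Atp5s, Cox6a2 as first-culture gene and Shmt2 or Itgad as overlapping genes were named after their values were seen. Alternatives were RLE factors, library size alone, other filters, DESeq2 1.42.0, limma-voom (limma 3.58.1), a replicate block, other library sets, each library left out, a minimum change of 1.2-fold, and Ndufa4 and Ndufa4l2 in complex I.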

Additional observations from a re-analysis of the deposited data

Results flagged for a closer look

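The gel effect differed between cells grown first on plates and cells grown first in gel for 4 members, by the edgeR interaction term. It was larger after gel by 1.942 ± 0.546 for Cox4i2 (adjusted p = 0.015), by 1.778 ± 0.347 for Ndufa4l2 (adjusted p = 0.000867), by 0.67 ± 0.207 for Cox6c (adjusted p = 0.0263) and by 0.61 ± 0.159 for Ndufa6 (adjusted p = 0.00905), with 4 libraries in each of the 4 groups.

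A library stood far from the other 3 of its group, by Dixon's criterion for 4 values, in 15 of 255 gene or share and group pairs looked at, where chance gives about 1 in 20. In 2D-2D, replicate 4 had 215 CPM of Atp5g2 (others 248 to 253) and 120.6 of Ndufb8 (others 167 to 171). In 2D-3D, replicate 3 had 148 CPM of Atp5f1 (others 120.2 to 122), 117 of Atp5g3 (others 97.9 to 101) and 47.2 of Ndufa12 (others 35.9 to 37.2). In 3D-2D, replicate 1 had 134 CPM of Atp5f1 (others 99.4 to 102) and 257 of Uqcrc1 (others 311 to 321), replicate 2 had 71.1 of Cox6c (others 88.6 to 90.9), replicate 3 had 69.5 of Sdhd (others 66.8 to 67.2) and replicate 4 had 27.8 of Ndufc1 (others 24.9 to 25.2). In 3D-3D, replicate 1 had 279 CPM of Cox6a1 (others 217 to 227), 30.8 of Ndufa1 (others 23 to 24) and 99.4 of Ndufa13 (others 86.5 to 87.7). In the sorted group, replicate 3 had 69 CPM of Atp5f1 (others 66.8 to 67) and replicate 2 had 49 of Cox6c (others 38.6 to 40.3).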

How the results depend on the processing

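The medians of members moved by more than the spread between replicates with libraries scaled by size alone: to 0.00 in 3D-3D against 2D-2D, to -0.031 in 2D-3D against 2D-2D and in 3D-3D against 3D-2D, to 0.91 in 2D-2D against sorted cells and to 0.90 in 3D-2D against sorted cells. Without the filter on low counts the last became 1.22. A minimum change of 1.2-fold left 35, 29, 1 and 2 members called in 2D-3D against 2D-2D, 3D-3D against 3D-2D, 3D-3D against 2D-3D and 3D-2D against 2D-2D. A fit of only the groups compared left 1 in 3D-3D against 2D-3D.
Leaving out 1 library at a time gave medians from -0.348 to -0.24 in 3D-3D against 3D-2D and from 1.124 to 1.231 in 3D-2D against sorted cells, and 1 to 4 members called in 3D-3D against 2D-3D and 3 to 8 in 3D-2D against 2D-2D. Of the genes the text names, 1 reversed: Sdhc in 2D-3D against 2D-2D, at 0.091 with size scaling, where 12 others lost and 6 gained their call. The 1.2-fold minimum ended 27 single-gene calls, DESeq2 2, limma-voom 3 and RLE factors 1. A replicate block, for numbers that do not pair the libraries, called 57 members in 2D-3D against 2D-2D, 53 in 3D-3D against 3D-2D, 3 in 3D-3D against 2D-3D, 6 in 3D-2D against 2D-2D and 79 in 2D-2D against sorted cells. Beyond the scaling and the 1.2-fold minimum, the cause of these moves was not tested.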
